A study of Mus musculus with 23 samples.

Results

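Glycosyltransferases of the families that build and cap mucin-type sugar chains were followed through mouse intestinal epithelium. They were taken by gene symbol, as the genes listed in both of the authors' deposited tables under the names Fut, Galnt, B3gnt, B4galt, B3galt, B4galnt, Gcnt, St3gal, St6gal or St8sia, which gave 79 of 22517 named genes. RNA came from 3 groups of 3 libraries each, all from adult mice of a mixed B6;129 background and from the proximal intestine. Wild-type villus epithelium carried EedF/F without Cre, Eed-null villus epithelium carried EedF/F with Villin-CRE, and intestinal stem cells (ISC) were Eed+/+ with Lgr5-EGFP-IRES-CREERT2 and were sorted for high GFP. All 3 groups had tamoxifen, 1 to 2 mg on 5 days. Villin drives Cre in all lineages of the gut epithelium, and Eed is a subunit of the Polycomb complex that places the repressive mark H3K27me3.

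Each table holds 1 RPKM value per group (reads scaled to gene length and sequencing depth), so the spread between libraries and the depth of each library are unknown, and the authors' q-value is the measure of error. Genes count as called if tested by the authors with q of 0.05 or less. The tables were scaled separately, and wild-type villus therefore reads 1.16193 times higher in the table with ISC than in the table with Eed-null villus. The groups matched their labels in the deposited values: enterocyte markers were all higher in villus (8 of 8 tested) and stem cell markers all higher in ISC (6 of 6). Eed itself stood at 3.00 RPKM with Villin-CRE against 9.17 in the wild type (q = 6.29e-06 in the authors' deposited table). Mesenchyme and endothelium markers summed to at most 0.621 RPKM in any group. Villus was frozen after release, whereas ISC were enzymatically dissociated and sorted. Their genotypes differed as well, so cell type, handling and genotype cannot be told apart in that comparison.

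Mucin-type O-glycosylation starts in the Golgi, where an enzyme of the Galnt family joins N-acetylgalactosamine (GalNAc) to serine or threonine. The chain is then built on a core: core 1 by the galactosyltransferase C1galt1 with its chaperone C1galt1c1, core 2 by Gcnt branching enzymes on core 1, or core 3 by B3gnt6. Alternating galactose and N-acetylglucosamine (GlcNAc) extend it, and fucose, sialic acid or the Sda antigen cap it. In the intestine such chains cover the gel-forming goblet cell mucin Muc2 and the membrane mucins of enterocytes, where they hold water and serve as sites that microbes bind. The symbol families also hold enzymes of N-glycans, glycolipids and proteoglycans. Only 30 of the 79 genes are on a list of enzymes known for mucin-type O-glycans, so the name covers them in part.

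By the sugar they add, 22 genes transfer GalNAc, 15 are listed as GlcNAc transferases, 12 transfer galactose, 9 are fucosyltransferases and 20 are sialyltransferases. Among these, Fut4-ps1 is a pseudogene. B3galtl, whose current symbol is B3glct, adds glucose and was kept apart. The entry B3gnt1 lies on chromosome 19 like B4gat1, for which B3gnt1 is an older symbol, and B4gat1 is known to add glucuronic acid. Between villus and ISC 51 of the 79 were tested, between Eed-null and wild-type villus 50, and 26 in neither. No untested gene exceeded 0.3003 RPKM in the comparison of villus and ISC, or 0.280 RPKM in that of Eed-null and wild-type villus. All 6 St8sia genes, which extend sialic acid chains, and both genes encoding the enzymes that sialylate galactose in alpha-2,6 linkage (St6gal1 and St6gal2) were among the untested ones, with a highest value of 0.280 RPKM. St3gal5, which makes the ganglioside GM3, was also untested, at 0.0754 RPKM in villus against 0.0135 in ISC.

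Glycosyltransferase genes were more often called higher in villus than in ISC. Of 51 tested, 27 were called higher in villus, against 30.5% of all genes tested in that table, and 8 were called higher in ISC, against 32.3%. In this comparison no tested gene had less than 0.246 RPKM in its higher group. Gcnt1, B3gnt6, St6galnac6 and B3galt5, all called higher in villus, were under that level in ISC and entered the test through their villus level. Fut1 and Fut10, called higher in ISC, were likewise under it in villus. The median log2 ratio of villus over ISC was 0.83 for the 51 genes and -0.10 over all tested genes above 0 in both groups. GlcNAc transferases leaned to villus, with 8 of 13 called higher there and none called higher in ISC. Galactosyltransferases (5 and 1 of 9), sialyltransferases (5 and 2 of 8) and GalNAc transferases (7 and 2 of 14) were called in both directions, and fucosyltransferases evenly so (2 and 2 of 6). In bulk RNA, a lower share of a cell type and less RNA per cell cannot be told apart.

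**Figure D1:**
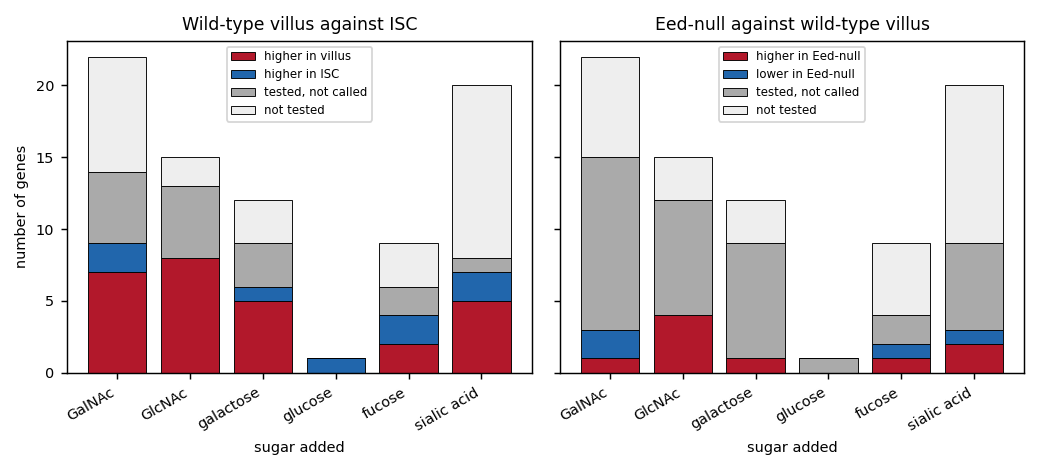
Stacked bars count the glycosyltransferase genes by the sugar they add, for villus against ISC (left) and Eed-null against wild-type villus (right); colours give genes called higher, called lower, tested but not called, and not tested. GlcNAc transferases have 8 genes higher in villus and 0 higher in ISC on the left, and 4 higher and 0 lower on the right.

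GalNAc is the first sugar of the chain, and RNA of several initiating enzymes was found in both populations. Of 18 Galnt genes 10 were tested, with 4 called higher in villus and 2 in ISC, against 30.5% and 32.3% of all tested genes. Galnt1 had 76.1 RPKM in villus against 23.5 in ISC, and Galnt6 had 75.3 RPKM in villus against 17.9 in ISC. These were the most abundant initiating enzymes of villus, and their ratios were 3.24 and 4.22, with q = 8.85e-13 and q = 1.99e-15 in the authors' deposited table. Galnt10 was 1.79-fold higher in villus (32.2 against 18.04 RPKM) and Galnt11 2.28-fold higher (15.1 against 6.61 RPKM). Galnt12 went the other way, with 24.1 RPKM in ISC against 11.1 in villus (q = 1.13e-05 in the authors' deposited table). Galnt4, at 23.9 RPKM in ISC against 14.4 in villus, was also called higher in ISC, but it shares its locus entry with Poc1b and the reads of the pair cannot be assigned with certainty. In ISC, the highest initiating enzymes were thus Galnt12, Galnt4 and Galnt1, within 23.5 to 24.1 RPKM, followed by Galnt7 at 21.8 RPKM. Galnt2 (15.54 in villus and 12.2 RPKM in ISC), Galnt3 (7.84 and 10.7 RPKM) and Galnt7 (16.8 and 21.8 RPKM), which shares its locus entry with AW046200, were not called.

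A second set of GalNAc transferases acts at the ends of chains. B4galnt2, which makes the Sda antigen, had 199 RPKM in villus against 91.6 in ISC. B4galnt1, which adds GalNAc to glycolipids and makes GM2 and GA2, had 166 RPKM in villus against 105 in ISC. Both were therefore abundant in both populations and higher in villus, 2.17-fold and 1.58-fold, with q = 7.23e-05 and q = 0.0350 in the authors' deposited table. B4galnt3, which forms the GalNAc-GlcNAc unit called LacdiNAc, was 2.69-fold higher in villus, at 10.1 against 3.77 RPKM. Its relative B4galnt4 was not called, at 3.74 and 5.21 RPKM.

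All 4 tested branching enzymes of the Gcnt family were called higher in villus, against 30.5% of all tested genes. Gcnt3, a mucin-type branching enzyme that forms core 2 and core 4, had 23.4 RPKM in villus against 8.53 in ISC. Gcnt4, another core 2 enzyme, had 19.6 and 3.66 RPKM, and Gcnt2, which branches polylactosamine into the I antigen, 14.4 and 1.49 RPKM. Gcnt1, the widely expressed core 2 enzyme of other tissues, was low here, at 0.561 RPKM in villus against 0.0630 in ISC. The ratios were 2.75 for Gcnt3, 5.34 for Gcnt4, 9.65 for Gcnt2 and 8.90 for Gcnt1, with the highest q, 3.45e-05, for Gcnt1 in the authors' deposited table.

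Of the 9 tested B3gnt genes, 4 were called higher in villus, against 30.5% of all tested genes. B3gnt3, which extends core 1 chains, reached 104 RPKM in villus against 17.0 in ISC, a 6.11-fold difference. B3gnt2, which builds polylactosamine, had 16.5 and 5.88 RPKM, and B3gnt7, known for keratan sulfate chains, 12.7 and 2.92 RPKM. The core 3 enzyme B3gnt6 was 13.3-fold higher in villus but low in both groups, at 1.33 and 0.1003 RPKM (q = 4.66e-07 in the authors' deposited table). For core 1 synthesis, C1galt1 stood at 16.0 RPKM in villus against 13.8 in ISC, which was not called (q = 0.466 in the authors' deposited table), and its chaperone C1galt1c1 at 36.2 and 20.6 RPKM (q = 0.00152 in the authors' deposited table).

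Galactosyltransferases of the B4galt family were called higher in villus in 4 of 6 tested cases, against 30.5% of all tested genes. B4galt5, a lactosylceramide synthase, had 43.2 RPKM in villus against 3.32 in ISC, a ratio that was the highest among galactosyltransferases. B4galt6, the other lactosylceramide synthase, had 40.2 and 8.15 RPKM, and B4galt1, the general enzyme that puts galactose on GlcNAc and shares its locus entry with Mir5123, 42.9 and 11.6 RPKM. The 3 genes lay between 40.2 and 43.2 RPKM in villus and were lower and further apart in ISC. B4galt4, which acts on sulfated GlcNAc, was 2.76-fold higher in villus, at 14.6 against 5.28 RPKM. B4galt3 had 16.6 and 15.2 RPKM and was not called (q = 0.679 in the authors' deposited table). Among B3galt genes, B3galt5, which makes type 1 chains, was 5.39-fold higher in villus at 1.24 against 0.231 RPKM. B3galt6, an enzyme of the proteoglycan linker, reached 2.53 RPKM in ISC against 0.906 in villus (2.80-fold higher in ISC). The glucosyltransferase B3galtl reached 8.11 RPKM in ISC against 4.89 in villus (1.66-fold higher in ISC).

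**Figure D2:**
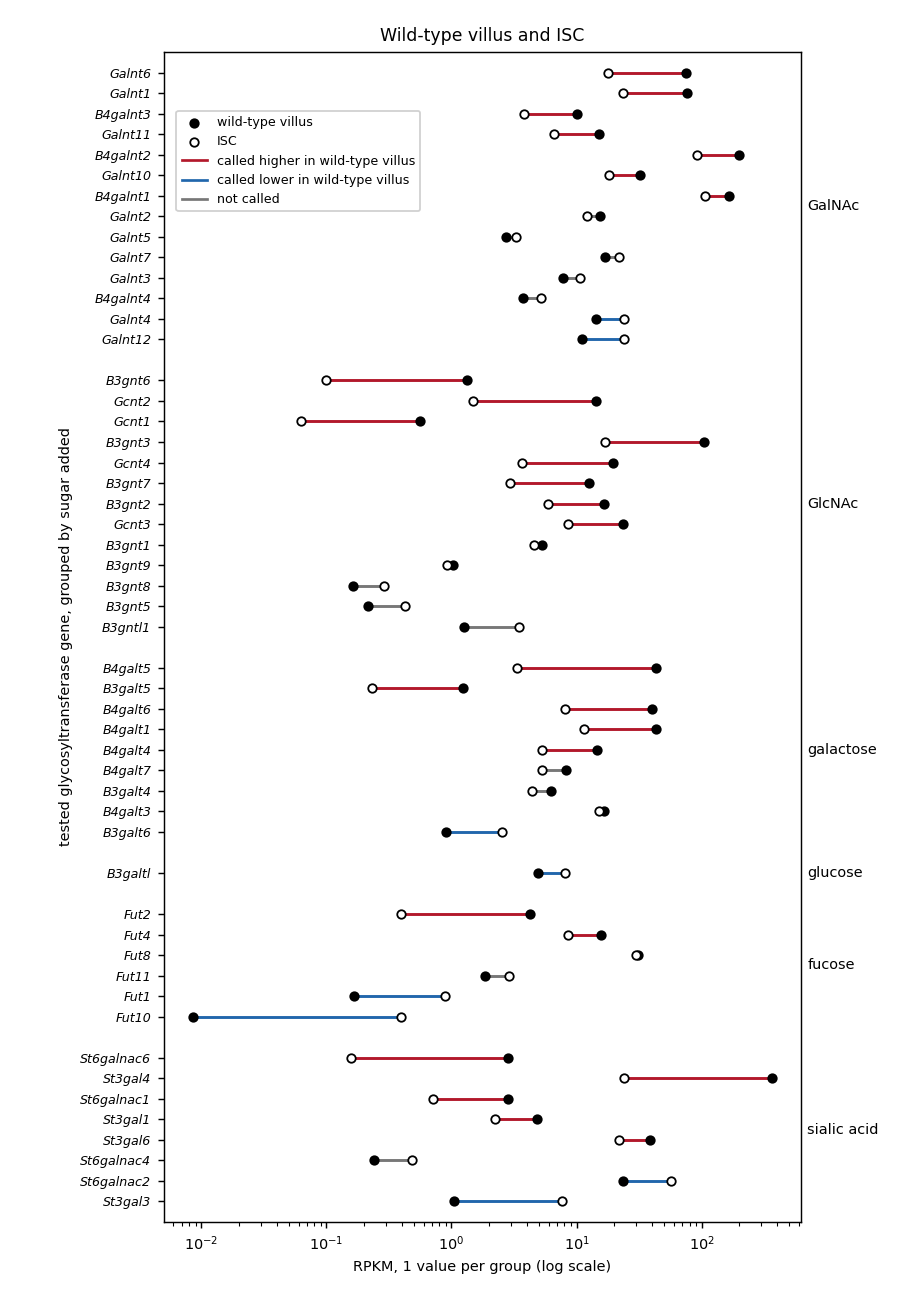
Each row is 1 of the 51 glycosyltransferase genes tested between villus and ISC, grouped by the sugar it adds; filled points give RPKM in wild-type villus and open points RPKM in ISC on a log axis, and the joining line is red where called higher in villus, blue where called higher in ISC and grey where not called. St3gal4 has the highest villus value (364 RPKM), and St6galnac2 and St3gal3 are the sialyltransferases called higher in ISC.

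RNA of the fucosyltransferases differed between villus and ISC for some genes and not for others. Fut2, which adds alpha-1,2 fucose and makes the H antigen on mucins, had 4.22 RPKM in villus against 0.396 in ISC, a 10.7-fold difference. Fut1, its close relative with the same linkage, had 0.165 RPKM in villus against 0.885 in ISC, a 5.35-fold difference the other way. The pair was thus called in opposite directions, with q = 2.43e-10 and q = 0.000248 in the authors' deposited table. Fut1 in both groups and Fut2 in ISC were under 1 RPKM. Fut4, which adds alpha-1,3 fucose and makes Lewis x, was 1.83-fold higher in villus at 15.8 against 8.62 RPKM. Fut8, the core fucosyltransferase of N-glycans, was the most abundant of the family and was not called, at 31.0 and 29.6 RPKM (q = 0.816 in the authors' deposited table). Fut10 was called higher in ISC at 0.396 RPKM against 0.00855 RPKM in villus (q = 0.0376 in the authors' deposited table), 2 levels under 1 RPKM.

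Sialyltransferases had the highest single value. St3gal4, which caps galactose with alpha-2,3 sialic acid, had 364 RPKM in villus against 23.8 in ISC, a 15.3-fold difference. Its locus entry also holds Dcps and 4930581F22Rik, so part of its reads may belong elsewhere. St3gal6, which caps the same type of chain, was 1.77-fold higher in villus at 38.9 against 21.98 RPKM, and St3gal1, which sialylates core 1, 2.15-fold higher at 4.83 against 2.25 RPKM. St3gal3, a further enzyme of this linkage, reached 7.68 RPKM in ISC against 1.05 in villus (7.28-fold, q = 9.08e-09 in the authors' deposited table). Enzymes of the St6galnac family sialylate GalNAc, and its members divided as well. St6galnac2 had 57.3 RPKM in ISC against 23.6 in villus, whereas St6galnac1, which makes the sialyl-Tn antigen, had 0.711 RPKM in ISC against 2.85 in villus. Their q-values were 1.10e-07 and 0.000155 in the authors' deposited table. St6galnac6 was called 18.02-fold higher in villus (2.85 against 0.158 RPKM), but it shares its locus entry with St6galnac4, which was not called at 0.240 and 0.482 RPKM.

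Genes of sugar donors and their carriers were called in both directions. Nucleotide sugar synthesis had 18 tested genes, with 7 called higher in villus and 1 in ISC, against 30.5% and 32.3% of all tested genes. The carriers, other transferases and sulfotransferases below are to be read beside the same shares of all tested genes. Uap1l1 (63.8 against 6.66 RPKM), Ugp2, which makes UDP-glucose (46.3 against 20.6 RPKM), and Gfpt1, the first enzyme of the hexosamine pathway (55.5 against 26.0 RPKM), were among those higher in villus. Gne, which starts sialic acid synthesis, was called higher in ISC, at 22.18 against 13.05 RPKM. The Golgi carrier of CMP-sialic acid, Slc35a1, was likewise 2.55-fold higher in ISC, at 17.3 against 6.80 RPKM. Slc35d2, a carrier of the same family, went the other way, 8.54-fold higher in villus at 12.95 against 1.52 RPKM, as did Slc35a2, the carrier of UDP-galactose (19.3 against 11.5 RPKM). Of 6 carriers 3 were called higher in villus and 2 in ISC. Of 15 other tested transferases 6 were higher in villus and 4 in ISC, led by the N-glycan branching gene Mgat4c, which shares its locus entry with Mir3059, at 23.5 against 0.121 RPKM. Among 4 tested sulfotransferases, Gal3st2, which sulfates galactose, was 11.2-fold higher in villus at 65.9 against 5.89 RPKM. Its relative Gal3st1 (29.9 against 10.5 RPKM) and Chst4, of another sulfotransferase family (8.99 against 4.29 RPKM), were also higher in villus. Chst2 (0.341 RPKM in ISC against 0.0184 in villus) was higher in ISC.

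Of 5 tested mucin backbones 1 was called higher in villus and 2 were higher in ISC, against 30.5% and 32.3% of all tested genes. Muc2 had 87.5 RPKM in villus against 106 in ISC and was not called (q = 0.437 in the authors' deposited table). The membrane mucin Muc13 was 3.41-fold higher in villus, at 723 against 212 RPKM, and Muc4, which shares its locus entry with Muc20, reached 11.3 RPKM in ISC against 1.85 in villus (6.10-fold higher in ISC). The 9 goblet cell markers, all tested and none at 0, summed to 12346 RPKM in villus against 2722 in ISC. Most of the villus sum came from Zg16 (6105 against 165 RPKM), Tff3 (4127 against 1547 RPKM) and Clca3 (1123 against 107 RPKM). These 3 were called higher in villus, Spdef and Clca1 were called higher in ISC, and the other 4 were not called. Leukocyte markers summed to 117 and 26.9 RPKM, with 6 of 9 called higher in villus, and tuft cell markers to 29.9 and 5.90 RPKM, with 5 of 6 called higher in villus. Enteroendocrine markers (7 tested) were higher in villus in 2 cases and in ISC in 4. The 4 tested Paneth cell markers summed to 2620 RPKM in villus and 6429 RPKM in ISC, with 3 called higher in ISC. Lyz1, Defa17 and Defa24 were untested, with the status HIDATA in place of OK. They are listed at 0 in ISC, which is not read as absence, so they are left out of these sums. The part of these cell types in the glycosyltransferase levels was not tested.

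In Eed-null villus 13 glycosyltransferase genes were called. Of 50 tested, 9 were called higher in Eed-null villus, against 7.9% of all genes tested, and 4 were called lower, against 3.46%. Fut2 rose 9.12-fold, the core 2 enzyme Gcnt1 10.3-fold and the initiating enzyme Galnt14 70.8-fold, whereas both abundant terminal GalNAc transferases, B4galnt1 and B4galnt2, fell. The median log2 ratio of Eed-null over wild-type villus was 0.11 for the 50 genes and -0.076 over all tested genes above 0 in both groups, and it was -0.037 for the 41 genes at 1 RPKM or more in both. The 4 genes called lower differed by 1.69-fold to 1.87-fold, and 2 of them passed at q of 0.01.

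**Figure D3:**
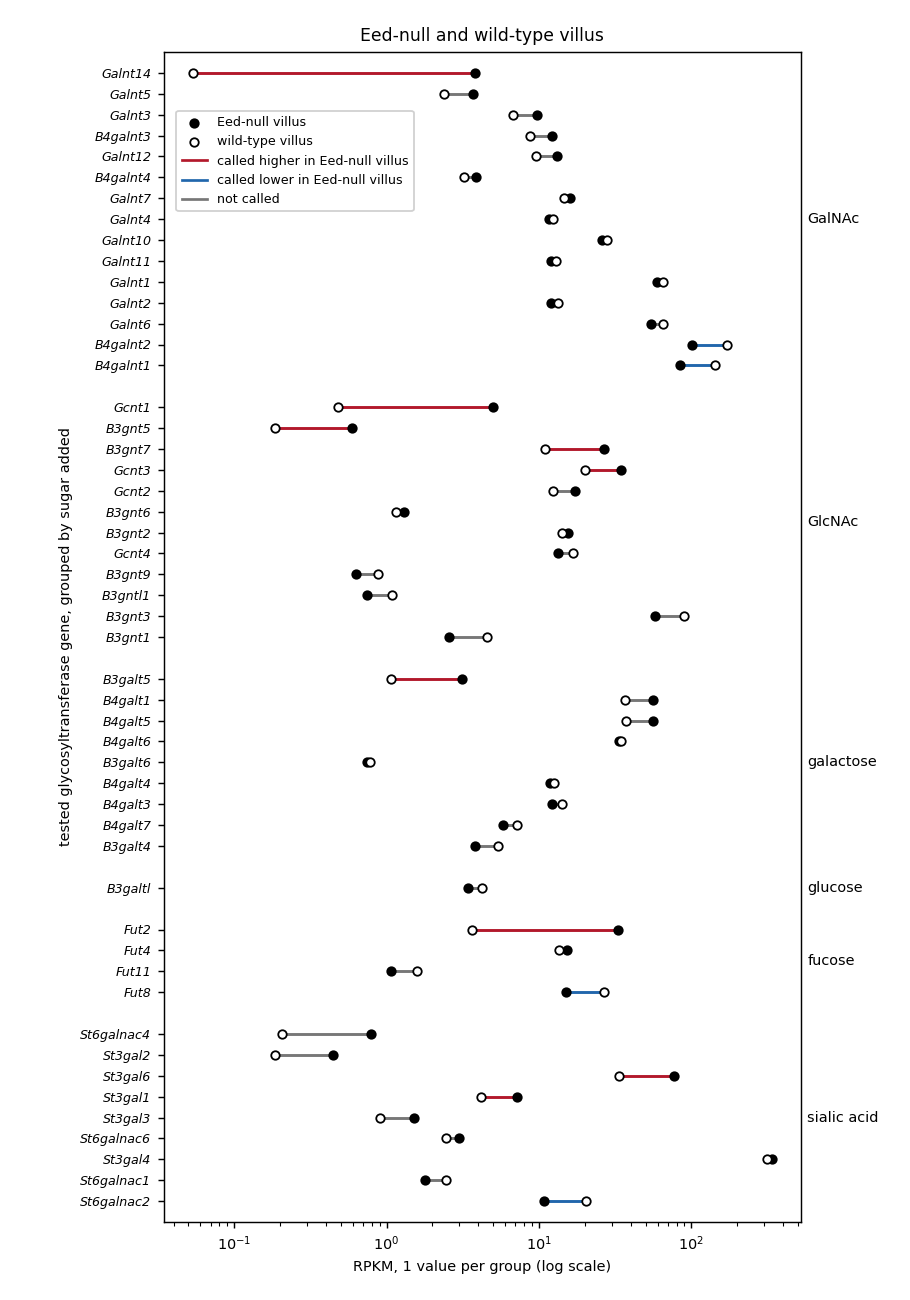
Each row is 1 of the 50 glycosyltransferase genes tested between Eed-null and wild-type villus, grouped by the sugar it adds; filled points give RPKM in Eed-null villus and open points RPKM in wild-type villus on a log axis, with the joining line red where called higher in Eed-null villus, blue where called lower and grey where not called. Galnt14, Gcnt1 and Fut2 have the longest lines, and B4galnt1, B4galnt2, Fut8 and St6galnac2 are called lower.

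Fut2 had 33.1 RPKM without Eed against 3.63 in wild type, with q listed as 0 in the authors' deposited table. Its level became the highest of the 4 tested fucosyltransferases in Eed-null villus, where Fut4 had 15.3 RPKM, Fut8 15.1 RPKM and Fut11 1.06 RPKM. Fut8 fell from 26.7 RPKM, 1.77-fold (q = 0.00536 in the authors' deposited table), while Fut4 was not called, from 13.6 RPKM (q = 0.781 in the authors' deposited table). Fut1 was not tested in this comparison, at 0.245 RPKM without Eed against 0.142 in wild type. On build mm9, Fut2 lies on chromosome 7 from 52903964 to 52921678 and Fut1 from 52872975 to 52876427. The other genes of that stretch were looked at after the values of Fut2 were seen. Ntn5, which begins at 52939783 on the far side of Fut2 from Fut1, was called higher at 0.835 against 0.145 RPKM (q = 0.00540 in the authors' deposited table), and Mamstr, Rasip1 and Izumo1 between Fut1 and Fut2 were untested, at 0.141 RPKM or less.

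Of the 4 tested branching enzymes 2 rose, against 7.9% of all tested genes, and core 1 and core 3 enzymes were not called. Gcnt1 had 4.96 RPKM without Eed against 0.483 in wild type, with q listed as 0 in the authors' deposited table. Gcnt3 rose 1.71-fold from 20.2 to 34.5 RPKM (q = 0.0113 in the authors' deposited table) and was still the more abundant of the pair. Gcnt4 had 13.3 RPKM without Eed against 16.8 in wild type, and Gcnt2 17.3 and 12.4 RPKM, neither called. The core 3 enzyme B3gnt6 had 1.30 and 1.15 RPKM (q = 0.891 in the authors' deposited table), and C1galt1 of core 1 had 17.1 and 13.7 RPKM (q = 0.525 in the authors' deposited table). Its chaperone C1galt1c1 was not called either, at 30.4 and 31.1 RPKM.

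Of the 8 tested B3gnt enzymes 2 rose, against 7.9% of all tested genes. B3gnt7 rose 2.44-fold, from 10.9 to 26.7 RPKM (q = 4.31e-06 in the authors' deposited table). B3gnt5, which starts lacto-series glycolipids, rose 3.18-fold but from 0.186 to only 0.594 RPKM (q = 0.0178 in the authors' deposited table). The abundant B3gnt3 had 58.1 RPKM without Eed against 89.3 in wild type and was not called (q = 0.0945 in the authors' deposited table). Among galactosyltransferases, B3galt5 alone was called, 2.92-fold higher at 3.13 against 1.07 RPKM (q = 9.83e-05 in the authors' deposited table). Type 1 chains made by B3galt5 are a known acceptor of Fut2, and both genes were called higher. B4galt1 (55.7 and 36.9 RPKM) and B4galt5 (55.7 and 37.2 RPKM) were not called, with q of 0.0777 and 0.0890 in the authors' deposited table, while B4galt6 had 33.7 and 34.6 RPKM.

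Of 15 tested GalNAc transferases 1 rose and 2 fell, against 7.9% called higher and 3.46% called lower over all tested genes. Galnt14 had 3.79 RPKM without Eed against 0.0535 in wild type, with q = 5.53e-12 in the authors' deposited table. It was untested between villus and ISC, at 0.0621 and 0.00533 RPKM, and entered the test here through its level in Eed-null villus. Between Eed-null and wild-type villus, no tested gene had less than 0.351 RPKM in its higher group. There, 4 of the 50 tested glycosyltransferase genes, B3gnt5 among them, were under that level in wild-type villus. None of the 10 other tested Galnt genes was called in the authors' deposited table. The abundant Galnt1 and Galnt6 had 59.2 and 54.0 RPKM in Eed-null villus and 65.5 and 64.8 RPKM in the wild type, where q was 0.826 and 0.670 in the authors' deposited table. At the chain ends B4galnt2 fell 1.69-fold from 171 to 101 RPKM and B4galnt1 1.71-fold from 143 to 83.6 RPKM, with q of 0.0292 and 0.0233 in the authors' deposited table. B4galnt3 (12.1 and 8.72 RPKM) and B4galnt4 (3.86 and 3.22 RPKM) were not called.

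Of 5 tested alpha-2,3 sialyltransferases 2 rose, and of 4 tested St6galnac genes 1 fell. Over all tested genes, 7.9% were called higher and 3.46% lower. St3gal6 rose 2.29-fold from 33.5 to 76.7 RPKM (q = 1.06e-05 in the authors' deposited table), and St3gal1 1.74-fold from 4.16 to 7.21 RPKM (q = 0.0155 in the authors' deposited table). St3gal4 was higher than both in either group and was not called, at 337 and 313 RPKM (q = 0.918 in the authors' deposited table). St3gal2 had 0.443 and 0.185 RPKM and lay just outside the threshold, with q = 0.0730 in the authors' deposited table. St6galnac2 fell 1.87-fold from 20.3 to 10.8 RPKM (q = 0.00384 in the authors' deposited table), and St6galnac1 was not called at 1.78 and 2.45 RPKM. Of 18 tested genes of nucleotide sugar synthesis, Cmas, which activates sialic acid, was called higher (84.6 against 51.1 RPKM, q = 0.0162 in the authors' deposited table) and none lower. No Golgi carrier of 6 and no sulfotransferase of 3 was called, and of 15 other transferases Mgat2, an N-glycan branching enzyme, was called lower (14.7 against 23.3 RPKM, q = 0.0438 in the authors' deposited table).

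The mucin Muc2 rose 1.68-fold in Eed-null villus, from 75.3 to 127 RPKM (q = 0.0346 in the authors' deposited table), and Muc4 1.82-fold from 1.59 to 2.90 RPKM, while Muc13 was not called at 829 and 622 RPKM. Muc2 is also 1 of the 9 goblet cell markers, of which Agr2, Atoh1 and Spdef were called higher besides it and none lower. Over all tested genes, 7.9% were called higher and 3.46% lower. The sum over the 9 goblet cell markers was 14214 RPKM without Eed against 10626 in wild type. Most of both sums came from Zg16 (5723 against 5254 RPKM), Tff3 (5538 against 3551 RPKM) and Clca3 (1654 against 966 RPKM), none of them called. Of the Paneth markers, Ang4 was called higher (1 of 7), with sums of 8057 and 6947 RPKM. Of 8 tested leukocyte markers Gzmb was called lower, with sums of 68.4 and 101 RPKM. Among enterocyte markers Lct was called lower (1 of 8 tested), and the 8 summed to 25605 RPKM without Eed against 35452 in wild type. Apoa4, untested with the status HIDATA and listed at 0 in wild-type villus, is left out of these enterocyte sums. That 0 is likewise not read as absence. Of 7 enteroendocrine markers 1 was called higher, with sums of 632 and 393 RPKM. None of 6 tuft cell markers was called in the authors' deposited table, with sums of 26.2 and 25.8 RPKM. Of 6 stem cell markers Olfm4 was called lower, at 40.6 against 94.5 RPKM (q = 6.18e-06 in the authors' deposited table), with sums of 61.6 and 116 RPKM. The part of cell composition in the glycosyltransferase changes was not tested.

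Levels in ISC differed among the 13 genes called in Eed-null villus. Both comparisons use the same wild-type villus libraries, so their values are only set side by side and no overlap of the calls is read. Between villus and ISC, B3gnt5 was not called (0.217 and 0.427 RPKM) and Galnt14 was untested, while Fut2, Gcnt1, Gcnt3, B3gnt7, B3galt5, St3gal1 and St3gal6 had the villus and ISC values given above. Of the 4 genes called lower in Eed-null villus, St6galnac2 had its higher level in ISC, B4galnt1 and B4galnt2 in villus, and Fut8 was not called.

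**Figure D4:**
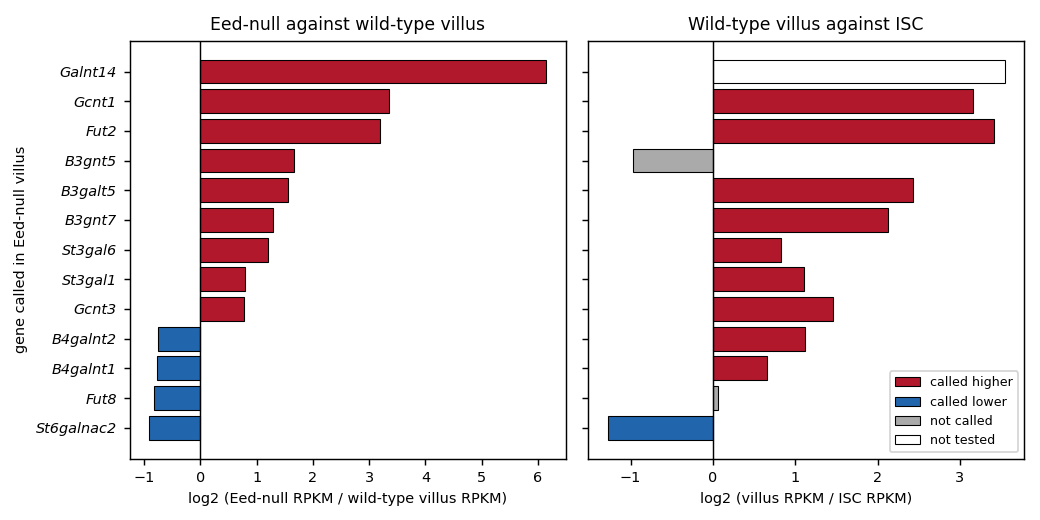
Bars give the log2 ratio of RPKM for the 13 glycosyltransferase genes called in Eed-null villus: Eed-null over wild-type villus (left) and wild-type villus over ISC (right), coloured by the call in that comparison. Galnt14 has the longest bar on the left (6.15) and is untested on the right, and St6galnac2 is called lower in both (-0.91 and -1.28); both panels use the same wild-type villus libraries.

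Polycomb complexes are known to occupy CpG-rich promoters, so the sequence before the gene starts was described. RefSeq windows on GRCm38.p6, cut to the 250 bases before each start, were found by symbol for 56 of the 79 genes (76 windows). They held a median of 14 CpG dinucleotides against 6 over all 32851 windows. The latter cover 27025 genes, more than the 22517 named genes of the deposited values, and were not matched to the glycosyltransferase genes. Windows of genes called higher in Eed-null villus held 1 to 20 (6 genes, 11 windows, median 9), those of genes called lower 0 to 27 (2 genes, 5 windows, median 12) and those of tested genes not called 2 to 38 (26 genes, 31 windows, median 15). No window was found for Fut2, Gcnt3 and St3gal1, called higher, or for B4galnt1 and St6galnac2, called lower, so these are not covered. The groups overlapped over most of their range. The deposited values count whole genes and do not tell which start was used.

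The 4 genes called in Eed-null villus that have a single window are shown, because the RefSeq table gives each a single start. Bases run 5′ to 3′ on the gene's strand, and capitals mark each CpG. Galnt14 (chr17:73710452-73710701, minus strand) and B3gnt7 (chr1:86302971-86303220, plus strand) rose, as did B3gnt5 (chr16:19759984-19760233, plus strand), and B4galnt2 (chr11:95914872-95915121, minus strand) fell.
Galnt14: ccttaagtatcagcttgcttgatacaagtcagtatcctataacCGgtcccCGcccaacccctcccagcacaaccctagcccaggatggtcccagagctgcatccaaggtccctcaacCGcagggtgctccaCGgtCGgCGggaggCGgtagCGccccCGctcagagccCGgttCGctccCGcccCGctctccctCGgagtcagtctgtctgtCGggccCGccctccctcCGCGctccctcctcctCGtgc
B3gnt7: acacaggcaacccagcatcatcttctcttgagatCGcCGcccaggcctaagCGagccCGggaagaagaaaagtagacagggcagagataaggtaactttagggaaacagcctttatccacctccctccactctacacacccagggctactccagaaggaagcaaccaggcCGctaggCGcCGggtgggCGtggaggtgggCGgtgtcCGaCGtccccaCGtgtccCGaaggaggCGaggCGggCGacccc
B3gnt5: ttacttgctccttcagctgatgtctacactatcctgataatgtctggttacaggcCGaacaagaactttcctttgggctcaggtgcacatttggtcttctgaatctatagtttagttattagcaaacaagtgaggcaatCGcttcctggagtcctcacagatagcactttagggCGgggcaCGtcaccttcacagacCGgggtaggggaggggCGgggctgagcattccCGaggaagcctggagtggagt
B4galnt2: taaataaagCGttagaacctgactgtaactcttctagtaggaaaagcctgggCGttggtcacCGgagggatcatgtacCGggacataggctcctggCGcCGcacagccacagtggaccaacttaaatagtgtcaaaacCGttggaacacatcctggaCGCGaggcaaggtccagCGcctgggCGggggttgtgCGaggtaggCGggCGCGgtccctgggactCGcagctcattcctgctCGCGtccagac

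These windows held 19 CpG for Galnt14, 16 for B3gnt7, 7 for B3gnt5 and 18 for B4galnt2. The other called genes found have several windows each. Those called higher are Gcnt1 (2, 10 and 2 CpG), B3galt5 (9, 6 and 20 CpG) and St3gal6 (16 and 1 CpG), and Fut8, called lower, has 12, 27, 0 and 3 CpG. Any link between CpG content and the calls was not tested. St3gal4, the most abundant member in villus and not called in Eed-null villus, has 25 CpG in its single window, more than 89.3% of all windows hold.

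**Figure D5:**
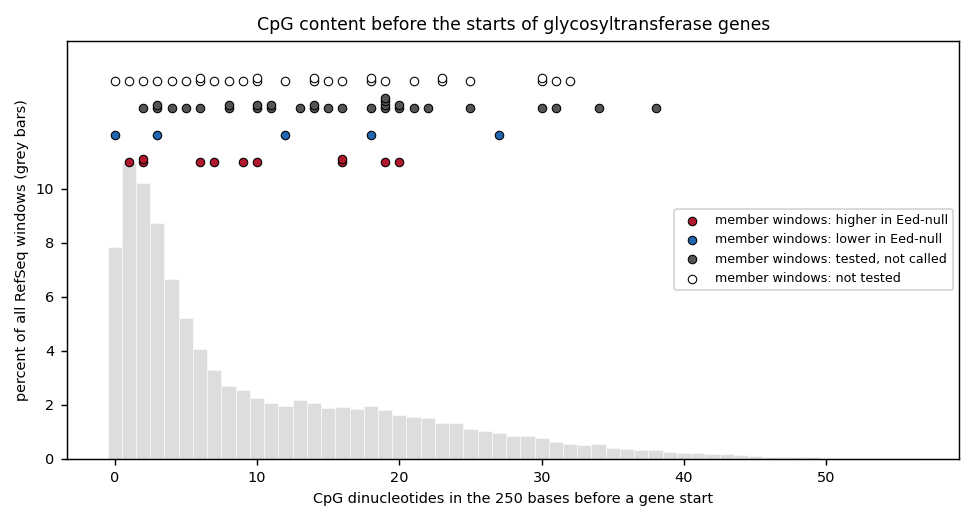
Grey bars show the percent of all 32851 RefSeq windows by the number of CpG dinucleotides in the 250 bases before a gene start; points above them, stacked by group with no scale of their own, are the 76 windows of glycosyltransferase genes, coloured by their call in Eed-null villus. Windows of genes called higher (1 to 20), called lower (0 to 27) and not called (2 to 38) overlap.

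Letters of motifs known for intestinal factors were searched on both strands of the same windows. CAAAGTCCA, the core of the HNF4 motif, was in 1 of 76 windows, that of B3gnt3, and in 0.384% of all windows. TTTATNG, for CDX factors, was in 3 of 76 windows, of Fut8, Galnt11 and Galnt9, and in 9.81% of all windows. AGATAAG, for GATA factors, was in 1 window, that of B3gnt7, and in 2.74% of all. None of the 3 motifs is contained in another, and a match is a run of letters, not a bound site.

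The 15 genes tested in at least 1 comparison but called in neither included Galnt2, Galnt3, Galnt7 and B4galt3 above 10 RPKM in a group. The other 11 were B3galt4, B3gnt1, B3gnt8, B3gnt9, B3gntl1, B4galnt4, B4galt7, Fut11, Galnt5, St3gal2 and St6galnac4, at 8.27 RPKM or less. Of these, B3gnt9, B3gntl1 and St6galnac4 share locus entries with other genes. Near the threshold of q = 0.05, Fut10 (q = 0.0376) and B4galnt1 (q = 0.0350) lay inside and B4galt7 (q = 0.0703) and B3gntl1 (q = 0.0790) outside between villus and ISC in the authors' deposited table.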

How the data were processed

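RNA libraries were unstranded TruSeq V2 libraries read as 75 bp single reads, per the labels' protocols. The submitters' processing notes name Bowtie, TopHat2 2.0.6, Cufflinks 2.0.1, Cuffdiff and build mm9 without roles, with an annotation not given in the sources used here. Deposited by the authors were 2 tables, each with 1 RPKM value per group, a p-value and a q-value per gene. The first table's RPKM unit is given per the file headers; in the second it was inferred, because its wild-type villus values equal the first's divided by 1.16193 (range 1.16192 to 1.16194, 10353 genes at 1 RPKM or more). The deposited q-values equal Benjamini-Hochberg values over genes with status OK to within 2.12e-06. Whether the 3 libraries of a group are from separate mice is known only as the labels' word biological replicate.

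Calls used the authors' q at or below 0.05 and status OK; 13007 and 12525 named genes were tested. Ratios are of RPKM with no pseudocount, computed with pandas 2.3.3 in Python 3.11.15, and no model was fitted because no value per library is given. The counting was checked on generated data. Members and lists were chosen with earlier results of these data known. Values are given for members called in either comparison and for uncalled ones above 10 RPKM; of each other list, up to 4 called genes with the largest ratio, plus Muc2, C1galt1, C1galt1c1 and Eed. A gene that this rule names is not reported here. Gne, B4galnt4, Fut11, St3gal2, St3gal5, St6galnac4, B3gntl1, B4galt7, Muc13 in Eed-null villus and the genes near Fut2 were named after their values were seen. The alternatives were a stricter q, a 2-fold minimum, RPKM filters, other pseudocounts (1 and 0.1), centring on all genes, leaving out shared locus entries and a narrower gene list. Of the symbols 77 of 79 are current. The 14 chromatin and input libraries were not analysed here.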

Additional observations from a re-analysis of the deposited data

How the results depend on the processing

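Over all genes reaching 1 RPKM on both sides, the median ratio was 0.023 (log2) for villus over ISC and -0.10 for Eed-null over wild-type villus, and all 48 called ratios kept their direction when centred on it or computed as log2(RPKM + 1). Narrowing to the 30 enzymes known for mucin-type O-glycans left 13 of 21 tested genes higher in villus (30.5% of all genes) and 4 higher in ISC (32.3%), and 5 of 22 higher (7.9%) and 2 lower (3.46%) in Eed-null villus. Requiring 1 RPKM in both groups, chosen after seeing the data, left 21 of 38 genes higher in villus (33.0% of all genes under this filter), 5 of 38 higher in ISC (30.0%), and 6 of 41 higher (4.64%) and 4 lower (3.87%) in Eed-null villus. Of the 4 genes lower in Eed-null villus, 2 passed at q of 0.01 (2.06% of all tested genes) and 0 at a 2-fold minimum (1.72%); the 2-fold minimum left 7 of the 9 higher genes (6.60%). The median log2 ratio of villus over ISC was 0.65 with a pseudocount of 1, 0.82 with 0.1, 0.83 at 1 RPKM in both groups, 0.80 centred and 1.12 for the narrower list. For Eed-null over wild-type villus it was 0.10, 0.11, -0.037, 0.22 and 0.028 in the same order, so its sign turned at 1 RPKM in both groups, where fewer genes enter. No paired analysis was possible because the tables hold 1 value per group, and for the same reason no library could be left out. Depth per library is unknown, so differences not called are not shown to be absent.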
